A study of Mus musculus with 10 samples.

Results

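The TGF-β family hormones that liver cells release, and the proteins that bind them, were described in livers of mice on high fat diet (HFD). The 8 genes are Gdf15 (growth differentiation factor 15), Inhba, Inhbb, Inhbc and Inhbe (the activin subunits βA, βB, βC and βE), Fst (follistatin), Fstl1 and Fstl3 (follistatin-like proteins). They were chosen by gene name and make up 8 of the 54532 genes of the deposited expression table, and every one of them had a row. The table holds bulk RNA sequencing of 10 livers, 5 from control littermates (ASK1f/f) and 5 from mice that overexpress apoptosis signal-regulating kinase 1 in the liver (ASK1+hep). In ASK1+hep mice, an ASK1 cDNA in the Rosa26 locus is switched on by Cre under the albumin promoter, which is active in hepatocytes, whereas ASK1f/f mice carry the same construct with its stop cassette in place and without Cre. All 10 mice were males, received HFD for 7 weeks from 6 weeks of age, and were fasted for 5 h before the liver was taken. Each library carries an animal tag of its own, and the study counts 5 mice per group. Albumin (Alb), made by hepatocytes, lay between 14692 and 25083 FPKM in all livers, and all 8 hepatocyte markers examined passed the read filter.

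Activins are pairs of β subunits, cut from larger precursors by furin-like proteases. They bind a type II receptor (Acvr2a or Acvr2b), which recruits a type I receptor such as Acvr1b, and the complex phosphorylates Smad2 and Smad3. Inhbc and Inhbe are the subunits for which hepatocytes are best known, while Inhba and Inhbb are expressed in many tissues. Follistatin, itself secreted by the liver, wraps around activins and keeps them from their receptors, and Fstl3 binds activins in a similar way, while Fstl1 shares a follistatin domain but is not an activin trap of that kind. GDF15 is a stress-induced hormone that acts on appetite through GFRAL and its partner RET in the hindbrain. Gdf15 and Inhbe, like Fgf21, are known genes of the cellular stress response governed by ATF4. The study looked for hormones of the liver that could differ with hepatic ASK1, and the genotype comparison of these genes addresses that question for the activin family and GDF15.

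Inhbe and Inhbc are neighbours on the minus strand of chromosome 10 (GRCm38), with 1910 bases between the deposited gene models, and Gdf15 lies on the minus strand of chromosome 8. Promoter windows of 300 bases (250 before to 50 after a RefSeq start) were at hand for 7 of the 8 genes, all but Fst, 8 windows in all. They were searched on both strands for the C/EBP-ATF composite core TGATGCAA, the cyclic AMP response element TGACGTCA, the AP-1 site TGANTCA and the looser TGATGNAA, which contains the composite core. The only match in the 8 windows was TTGCATCA (the composite core read on the other strand), which starts 181 bases before the RefSeq start of Inhbe and is in capitals below. The deposited gene model of Inhbe starts 2563 bases before the RefSeq start, so by that model the match lies inside the gene. Of all 32851 promoter windows, 0.895% hold TGATGCAA, 3.97% TGATGNAA, 1.79% TGACGTCA and 7.81% TGANTCA. The stretches of the 3 genes with the highest levels are shown (RefSeq, GRCm38.p6, sense strand of each gene written 5′ to 3′), for Inhbe the 30 bases around the match and for Inhbc and Gdf15 the 250 bases before the start, which hold no match.
Inhbe chr10:127352011-127352040: catcctctttcTTGCATCAtgcatgtccac
Inhbc chr10:127370549-127370798: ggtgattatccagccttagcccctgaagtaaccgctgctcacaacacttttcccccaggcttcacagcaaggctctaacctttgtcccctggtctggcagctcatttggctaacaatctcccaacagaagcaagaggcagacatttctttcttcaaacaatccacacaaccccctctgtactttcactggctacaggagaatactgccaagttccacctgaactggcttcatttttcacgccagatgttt
Gdf15 chr8:70632457-70632706: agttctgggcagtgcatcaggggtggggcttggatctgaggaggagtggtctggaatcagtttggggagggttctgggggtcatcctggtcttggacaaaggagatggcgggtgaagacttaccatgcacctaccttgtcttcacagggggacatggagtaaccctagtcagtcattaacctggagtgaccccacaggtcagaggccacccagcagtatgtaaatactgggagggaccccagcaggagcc

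Levels are given as FPKM, reads per length of the gene and per size of the library. The genotype difference was fitted with limma, on log2(FPKM + 1), over the 13306 genes that passed a filter on low reads, with Benjamini-Hochberg adjustment, and 7 of the 8 members passed it. Fold changes on this scale understate the change of genes near or below 1 FPKM. Libraries held 13367742 to 16163378 reads on genes. Libraries that stood apart touch the results below. Map3k5, the gene of ASK1, stood at 4.71 to 6.88 FPKM in ASK1f/f replicates 1 to 4. ASK1+hep replicates 1 to 5 had 16.4, 11.1, 7.68, 12.4 and 15.2 FPKM of Map3k5. The library labelled ASK1f/f replicate 5 reached 19.8 FPKM and so went against its label. Within the ASK1+hep group, Map3k5 was lower in replicates 2, 3 and 4 than in replicates 1 and 5. The relation of Map3k5 to the members within this group was not tested. In ASK1+hep replicates 2, 3 and 4, genes with transcripts of at least 5000 bases were low relative to genes of at most 1000 bases, by -0.18, -0.59 and -0.20 on the log2 scale, whereas this length balance lay between 0.046 and 0.27 in the other 7 livers. ASK1+hep replicate 5 stood at the other end, with the highest length balance (0.27). GC content and gene length explained 25.0% of the variation in that library, the largest share of all livers. This share was 5.74%, 5.22%, 16.8% and 9.04% in ASK1+hep replicates 1 to 4, and 1.39% to 4.74% in ASK1f/f livers. Genotypes follow the labels throughout.

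None of the members reached the adjusted threshold of 0.05 by limma (0 of 7), and neither did any of the 13306 genes (0% called). At an unadjusted p under 0.05 there were 3 members, Fst, Inhbc and Gdf15, all with higher means in ASK1+hep livers. Across all genes 768 were called at that level (5.77%), 406 of them higher (3.05%) and 362 lower (2.72%) in ASK1+hep livers. With the replicate number as a block in the fit, the calls changed to Fst and Inhbe, with 880 of all genes called. Unadjusted p-values from limma were then 0.0097 for Fst, 0.0489 for Inhbe, 0.0502 for Gdf15 and 0.0693 for Inhbc. The median log2 fold change of the 7 members was 0.33, against -0.0065 for all genes, with 4 above and 3 below 0. Of all genes, 48.0% were above 0. For each of the 8 members the values of the genotypes overlapped, as for most genes. Only 115 of the 13306 genes (0.864%) had groups that did not overlap. In whole liver, fewer cells of a type and less RNA per cell cannot be told apart.

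**Figure D1:**
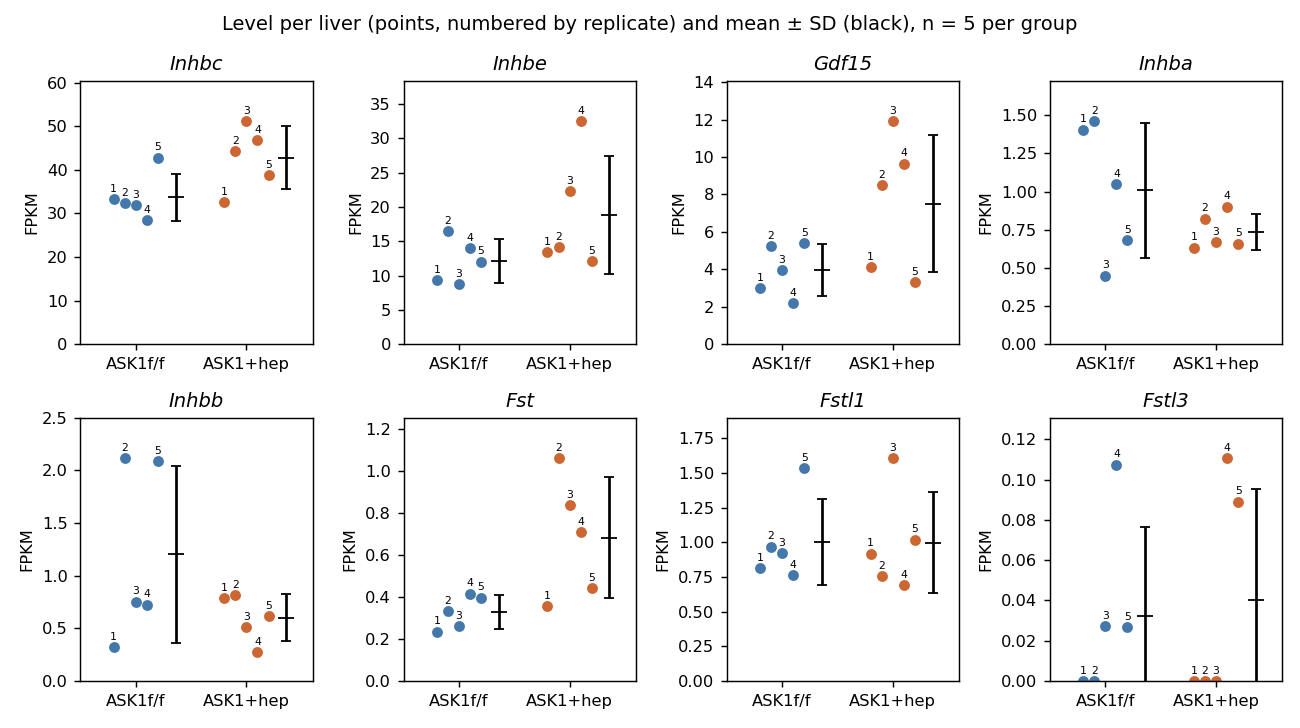
FPKM of each of the 8 genes in each liver (vertical axes, starting at 0), with ASK1f/f in blue and ASK1+hep in orange, numbered by replicate, and mean ± SD in black (n = 5 per group). ASK1+hep replicates 2, 3 and 4 hold the 3 highest values of Gdf15, Inhbc and Fst, and in every panel the genotypes overlap.

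Inhbc (ENSMUSG00000025405, chromosome 10, 127356322 to 127370431, minus strand, 2 exons) encodes the βC subunit and had the highest level of the 8 genes. ASK1f/f replicates 1 to 5 had 33.3, 32.3, 31.9, 28.4 and 42.8 FPKM. ASK1+hep replicates 1 to 5 had 32.6, 44.2, 51.1, 46.8 and 38.8 FPKM. Replicates 2, 3 and 4 of the ASK1+hep group lay above every ASK1f/f liver, and replicates 1 and 5 lay within the ASK1f/f range. Means were 33.7 ± 5.38 and 42.7 ± 7.19 FPKM (SD, n = 5 each), a 1.27-fold difference. The log2 fold change was 0.33 (standard error 0.14, unadjusted p = 0.0414, adjusted p = 0.812 from limma). By exact permutation of the genotypes (two-sided) p was 0.0556.

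Inhbe (ENSMUSG00000047492, chromosome 10, 127348857 to 127354411, minus strand, 2 exons) encodes the βE subunit. ASK1f/f replicates 1 to 5 had 9.29, 16.5, 8.80, 14.0 and 12.1 FPKM. ASK1+hep replicates 1 to 5 had 13.5, 14.1, 22.3, 32.5 and 12.1 FPKM. Only replicates 3 and 4 of the ASK1+hep group exceeded the ASK1f/f range, and replicate 4 was the highest of the 10 livers. Means were 12.1 ± 3.25 and 18.9 ± 8.61 FPKM (SD, n = 5 each), a 1.56-fold difference with a larger spread in ASK1+hep livers. The log2 fold change was 0.54 (standard error 0.26, unadjusted p = 0.0627, adjusted p = 0.812 from limma). By exact permutation of the genotypes (two-sided) p was 0.111. The ratio of Inhbe to Inhbc within a liver, which does not depend on library size, ran from 0.276 to 0.512 in ASK1f/f and from 0.311 to 0.694 in ASK1+hep livers. On the log2 scale that ratio was 0.24 higher in ASK1+hep livers (p = 0.492 by exact permutation of the genotypes).

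Gdf15 (ENSMUSG00000038508, chromosome 8, 70629393 to 70632456, minus strand, 2 exons) encodes the stress hormone. ASK1f/f replicates 1 to 5 had 3.01, 5.25, 3.97, 2.20 and 5.40 FPKM. ASK1+hep replicates 1 to 5 had 4.12, 8.52, 11.9, 9.65 and 3.33 FPKM. Replicates 2, 3 and 4 of the ASK1+hep group lay above every ASK1f/f liver, and replicates 1 and 5 lay within the ASK1f/f range, as for Inhbc. Means were 3.97 ± 1.39 and 7.51 ± 3.67 FPKM (SD, n = 5 each), a 1.89-fold difference. On the log2(FPKM + 1) scale the fold change of 0.70 was the largest among the members (standard error 0.31, 95% confidence interval 0.024 to 1.38, unadjusted p = 0.0436, adjusted p = 0.812 from limma). By exact permutation of the genotypes (two-sided) p was 0.0873.

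Fst (ENSMUSG00000021765, chromosome 13, 114452290 to 114458951, minus strand) encodes follistatin and had the lowest p of the members, at a low level. ASK1f/f replicates 1 to 5 had 0.235, 0.332, 0.262, 0.415 and 0.396 FPKM. ASK1+hep replicates 1 to 5 had 0.358, 1.06, 0.838, 0.708 and 0.443 FPKM. Replicates 2 to 5 of the ASK1+hep group lay above every ASK1f/f liver, replicate 5 by little, and replicate 1 lay within the ASK1f/f range. These values rest on 18 to 63 reads per liver. By exact Poisson intervals, which cover counting error only, the highest ASK1f/f value could lie between 0.278 and 0.596 FPKM, the highest ASK1+hep value between 0.816 and 1.36 FPKM, and ASK1+hep replicate 5 overlapped the ASK1f/f livers. Means were 0.328 ± 0.0795 and 0.682 ± 0.288 FPKM (SD, n = 5 each), a 2.08-fold difference. The log2 fold change was 0.33 (standard error 0.11, unadjusted p = 0.010, adjusted p = 0.812 from limma), and 0.94 by limma-voom, which has no added 1 FPKM. By exact permutation of the genotypes (two-sided) p was 0.0317, where 5 against 5 livers allow 0.00794 at the lowest.

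The 3 ASK1+hep livers with the highest Gdf15, Inhbc and Fst were the 3 with a length balance below 0. They were also the 3 ASK1+hep livers with the lowest Map3k5. The deposited gene lengths of these members run from 1852 bases (Gdf15) and 1859 (Inhbc) to 4589 (Fst). With a correction of each liver for GC content and gene length, the log2 fold change was 0.59 for Gdf15, 0.28 for Inhbc, 0.57 for Inhbe and 0.37 for Fst. Unadjusted p-values from limma were then 0.0282, 0.0440, 0.0532 and 0.0220. Without the libraries labelled ASK1f/f replicate 5 and ASK1+hep replicate 3, the log2 fold changes were 0.62, 0.35, 0.46 and 0.31 (unadjusted p = 0.0713, 0.0192, 0.157 and 0.0290 from limma). Of all genes past the filter, 26.5% had a Pearson r below -0.5 with the length balance over the 10 livers (median r 0.041). The correction did not remove the relation of these members to that balance. Across 14 relations (7 members, before and after it), r went from -0.83 to -0.70 for Gdf15 (adjusted p = 0.0245 and 0.0682), from -0.75 to -0.86 for Fst (0.0624 and 0.0277), from -0.66 to -0.69 for Inhbe (0.0889 and 0.0777) and from -0.67 to -0.42 for Inhbc (0.0682 and 0.331), by permutation tests. After the correction rho was -0.58 for Gdf15, -0.66 for Fst and -0.59 for Inhbe (each at adjusted p = 0.248) and -0.33 for Inhbc (adjusted p = 0.541, permutation tests). Without the 2 livers farthest from the median balance, ASK1+hep replicates 3 and 4, the corrected r was -0.45 for Gdf15, -0.80 for Fst, -0.32 for Inhbe and 0.0098 for Inhbc. So the genotype difference of these members and the length balance of replicates 2, 3 and 4 cannot be told apart, and what set these livers apart was not tested.

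Inhba (ENSMUSG00000041324, chromosome 13, 16011851 to 16031621, plus strand) and Inhbb (ENSMUSG00000037035, chromosome 1, 119415465 to 119422248, minus strand), the subunits of activins A and B, had means near 1 FPKM, and Inhbb had the widest range of the members past the filter. ASK1f/f replicates 1 to 5 had Inhba at 1.41, 1.46, 0.450, 1.05 and 0.681 FPKM, and ASK1+hep replicates 1 to 5 at 0.633, 0.823, 0.670, 0.901 and 0.659 FPKM. All 5 ASK1+hep livers fell within the ASK1f/f range, which was wider than their own. Inhba had a log2 fold change of -0.18 (standard error 0.14, unadjusted p = 0.209, adjusted p = 0.815 from limma; p = 0.262 by exact permutation). ASK1f/f replicates 1 to 5 had Inhbb at 0.324, 2.12, 0.754, 0.726 and 2.09 FPKM, and ASK1+hep replicates 1 to 5 at 0.786, 0.818, 0.512, 0.271 and 0.614 FPKM. A pair of ASK1f/f livers, replicates 2 and 5, stood above the other 8, which ranged from 0.271 to 0.818 FPKM. The log2 fold change of Inhbb was -0.39 (standard error 0.23, 95% confidence interval -0.88 to 0.10, unadjusted p = 0.111, adjusted p = 0.812 from limma). The same ASK1f/f livers had the highest Cdkn1a, at 7.61 FPKM in both against 0.489 to 2.65 FPKM in the other 8.

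Fstl1 (ENSMUSG00000022816, chromosome 16, 37776873 to 37836514, plus strand, 11 exons), a secreted glycoprotein of stromal cells, ranged from 0.762 to 1.53 FPKM (median 0.925) in ASK1f/f and from 0.689 to 1.61 FPKM in ASK1+hep livers. The highest value of each group came from ASK1f/f replicate 5 and ASK1+hep replicate 3, and the others lay between 0.689 and 1.02 FPKM. Of summed stellate cell and fibroblast markers, the former liver had the lowest value (65.6 FPKM) and the latter the highest (125 FPKM). Ecm1 alone made up 23.6 and 67.3 FPKM of these sums, its lowest and highest levels over the 10 livers, so both extremes rest largely on that gene. The part of those cells in the level of Fstl1 was not tested. Its log2 fold change was -0.01 (standard error 0.13, 95% confidence interval -0.29 to 0.28, adjusted p = 0.992 from limma). Fstl3 (ENSMUSG00000020325, chromosome 10, 79777272 to 79782630, plus strand), the follistatin-like activin binder, had 0 to 4 reads per liver and did not pass the filter. It had 0 reads in 5 of the 10 livers, where a limit of 3 reads, taken for a count of 0, corresponds to 0.0719 to 0.0949 FPKM, and at most 0.111 FPKM elsewhere. Its 6 reads in ASK1f/f and 7 in ASK1+hep livers have exact Poisson intervals of 2.20 to 13.1 and 2.81 to 14.4 reads, so no difference was detectable at this depth.

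**Figure D2:**
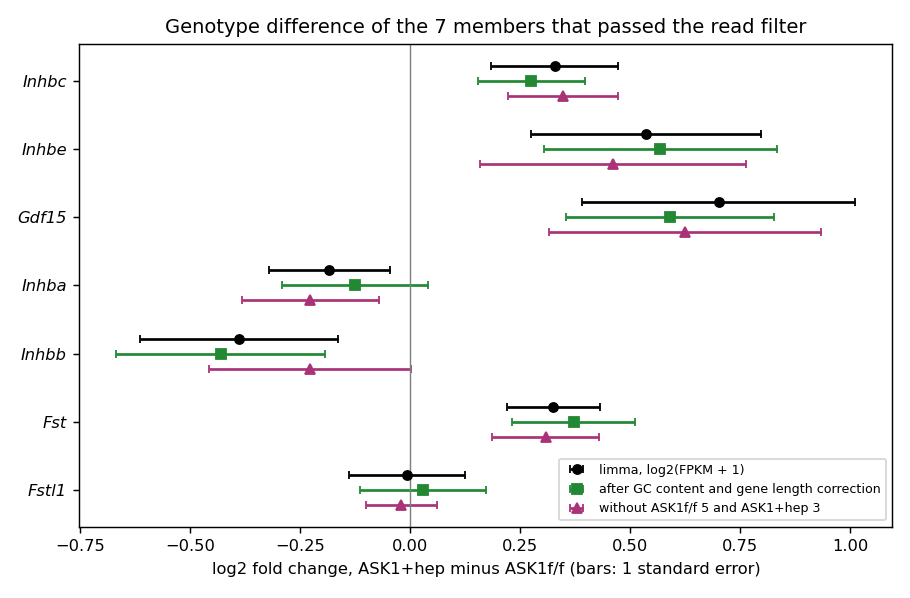
Log2 fold change (ASK1+hep minus ASK1f/f, horizontal axis) of the 7 members that passed the filter, with bars of 1 standard error, by limma on all 10 livers (black), after GC content and gene length correction (green) and without ASK1f/f replicate 5 and ASK1+hep replicate 3 (purple). Inhbc, Inhbe, Gdf15 and Fst lie above 0 in all 3 fits and Inhba and Inhbb below 0, while Fstl1 lies near 0.

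By mean over the 10 livers, the order of level per length was Inhbc (38.2 FPKM), Inhbe (15.5), Gdf15 (5.74), Fstl1 (1.00), Inhbb (0.901), Inhba (0.873), Fst (0.505) and Fstl3 (0.0361). Neighbours in this order were compared within livers by exact two-sided sign-flip permutation tests on log2(FPKM + 1), adjusted over the 7 pairs. Inhbc was above Inhbe, Inhbe above Gdf15, Gdf15 above Fstl1 and Fst above Fstl3 in 10 of 10 livers each (adjusted p = 0.00342, from the smallest p that 10 livers allow, 0.00195). Fstl1, Inhbb and Inhba were not separated by their spread, with mean differences of 0.12 ± 0.41 and -0.03 ± 0.49 (SD, n = 10) between neighbours (adjusted p = 0.422 and 0.879, exact permutation tests). Inhba was above Fst in 8 of 10 livers (adjusted p = 0.0273, exact permutation test).

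The place of Inhbe in this order depends on its gene model. The deposited length of 5319 bases comes from a model that starts 2563 bases before the RefSeq start, whereas the RefSeq gene spans 2447 bases (127349402 to 127351848). If all reads came from the RefSeq span, Inhbe would stand at 33.7 ± 15.4 FPKM against 38.2 ± 7.64 FPKM for Inhbc (SD, n = 10), with Inhbc higher in 7 of 10 livers (p = 0.107 by exact sign-flip permutation). This span includes any intron within it, whereas the deposited length counts exons only. Per exonic base Inhbe could therefore stand higher than this, and the comparison with Inhbc leans towards Inhbc. The table does not say where in the gene the reads fell. The antisense gene Gm47200, which overlaps both Inhbe and Inhbc, had at most 6 reads per liver, against at least 700 for Inhbe and 804 for Inhbc.

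Spread between livers also set the members apart. The coefficient of variation over the 10 livers was lowest for Inhbc (19.97%) and highest among the members past the filter for Inhbb (73.4%), with Gdf15 at 56.1%, Fst at 54.0%, Inhbe at 45.7%, Inhba at 38.6% and Fstl1 at 31.9%. From the lowest to the highest liver, Inhbc differed 1.80-fold, Fstl1 2.34-fold, Gdf15 5.42-fold and Inhbb 7.83-fold. Within ASK1f/f livers alone the coefficient was 15.9% for Inhbc, 24.2% for Fst and 69.9% for Inhbb, and within ASK1+hep livers 16.8%, 42.2% and 37.1%.

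Members were compared with each other over the 10 livers, 21 pairs in all, on log2(FPKM + 1). Gdf15 and Inhbc had the highest correlation (Pearson r = 0.88, adjusted p = 0.0231; Spearman rho = 0.81, adjusted p = 0.154, permutation tests). Without the 2 livers farthest from the median of Gdf15, ASK1+hep replicates 3 and 4, r was 0.73, and r was 0.81 within genotypes and 0.78 after the GC content and gene length correction. Gdf15 with Fst (r = 0.79, rho = 0.60) and Inhbc with Fst (r = 0.77, rho = 0.68) had an adjusted p of 0.0596 for r each, and 0.306 and 0.259 for rho, by permutation tests. Gdf15 with Inhbe had r = 0.72 (adjusted p = 0.0982) and rho = 0.65 (adjusted p = 0.259, permutation tests). Without ASK1+hep replicates 3 and 4, r was 0.67 for Gdf15 and Fst and 0.64 for Inhbc and Fst, but 0.32 for Gdf15 and Inhbe and 0.053 for Inhbc and Inhbe (0.59 over all 10 livers), so the last 2 relations rest on those livers. The 7 livers with a length balance above 0 leave out ASK1+hep replicates 2, 3 and 4, which also hold the highest Gdf15, Inhbc and Fst, and the narrower range by itself lowers r. In these 7 livers, r was 0.55 for Gdf15 and Inhbc (adjusted p = 0.605), -0.07 for Gdf15 and Fst (adjusted p = 0.912), 0.31 for Inhbc and Fst (adjusted p = 0.810) and 0.20 for Gdf15 and Inhbe (adjusted p = 0.876, exact permutation tests). Gdf15 was there closest to Inhbb, with r = 0.79 and rho = 0.86 (adjusted p = 0.358 and 0.50, exact permutation tests), a pair with r = -0.06 over all 10 livers, and Inhbc to Fstl1, with r = 0.88 (adjusted p = 0.0917, exact permutation test).

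**Figure D3:**
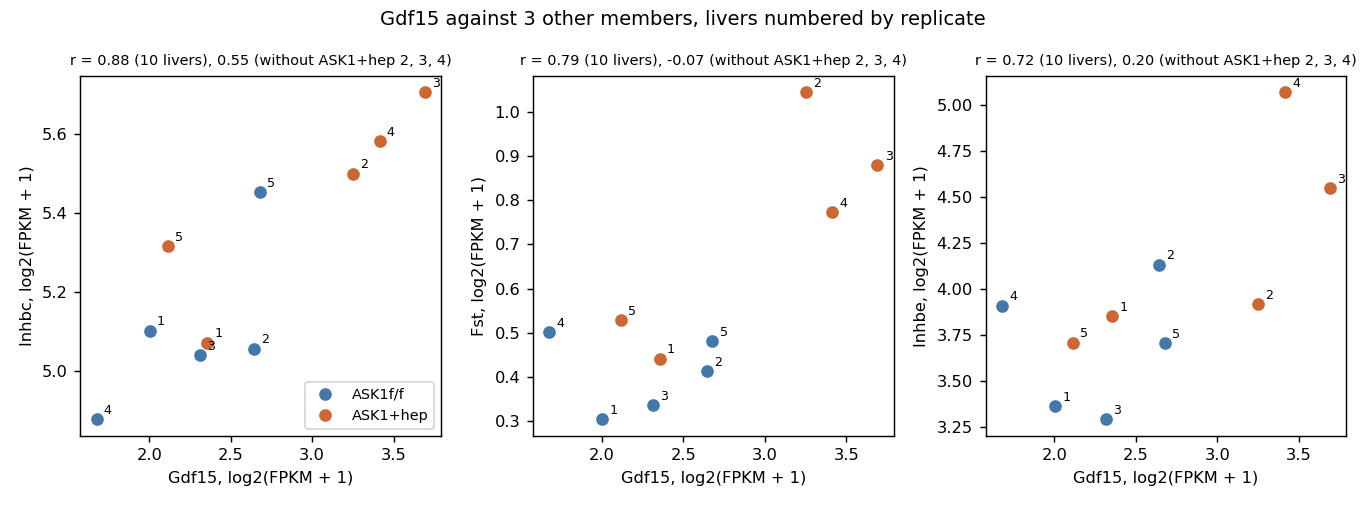
Gdf15 (horizontal axes) against Inhbc, Fst and Inhbe (vertical axes), all as log2(FPKM + 1), 1 point per liver, with ASK1f/f in blue and ASK1+hep in orange, numbered by replicate. ASK1+hep replicates 2, 3 and 4 lie to the right of the other 7 livers in each panel, and without them, over a narrower range of Gdf15, r is 0.55, -0.07 and 0.20 in place of 0.88, 0.79 and 0.72.

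The genes whose log2 levels followed each member most closely over the 10 livers, out of all genes past the filter, are given as a description, since 10 livers share depth, length balance and genotype differences. Gdf15 was followed by Srsf9 (r = 0.98), Krt18 (0.97) and A230083G16Rik (0.96). Inhbc was followed by Spindoc (0.95), Txndc5 (0.95) and Camk1 (0.93), and Inhbe by G0s2 (0.95), Dhx37 (0.94) and Jun (0.91). For Inhbe, the 2 followers G0s2 and Jun also had large log2 fold changes, of 0.96 and 1.27. Fst was followed by 9030616G12Rik (0.94), 1700017B05Rik (0.93) and the mitochondrial tRNA gene mt-Ti (0.92). Inhba was followed by Slc25a23 (0.85), Mapkapk3 (0.85) and the type I receptor gene Acvr1 (0.84), the lowest values of the 7 members. Inhbb was followed by Prkch (0.93), Gm10032 (0.93) and Cdkn1a (0.93), with rank correlations of 0.73, 0.77 and 0.71. Fstl1 was followed by B3gnt3 (0.96), Nes (0.95) and Thbs1 (0.94).

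Receptors of the family were present at low to moderate levels in every liver. The activin type I receptor Acvr1b stood at 4.44 ± 0.524 FPKM and the type II receptors Acvr2a at 2.47 ± 0.660 and Acvr2b at 0.604 ± 0.141 FPKM (SD, n = 10). Acvr1c, a further type I receptor, had at most 0.00832 FPKM, and Gfral and Ret, the receptor of GDF15 and its partner, had 0 reads in all 10 livers, as did the ligand Mstn. Of the 13 receptor genes, 10 passed the filter, 0 passed the adjusted threshold, and 9 of the 10 had a log2 fold change below 0 (median -0.08). The exception was Acvr1b (0.01). Of all genes past the filter, 48.0% had a log2 fold change above 0. After the GC content and gene length correction the median of the receptors was -0.03. The part of the length balance in these differences was not tested. The lowest p was that of Tgfbr2, the type II receptor of TGF-β, with 4.67 ± 0.762 FPKM in control livers and 3.47 ± 0.785 FPKM in ASK1+hep mice (SD, n = 5 each; log2 fold change -0.35, unadjusted p = 0.0289, adjusted p = 0.812 from limma). Acvr1 and Acvr2a had log2 fold changes of -0.09 and -0.16.

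**Figure D4:**
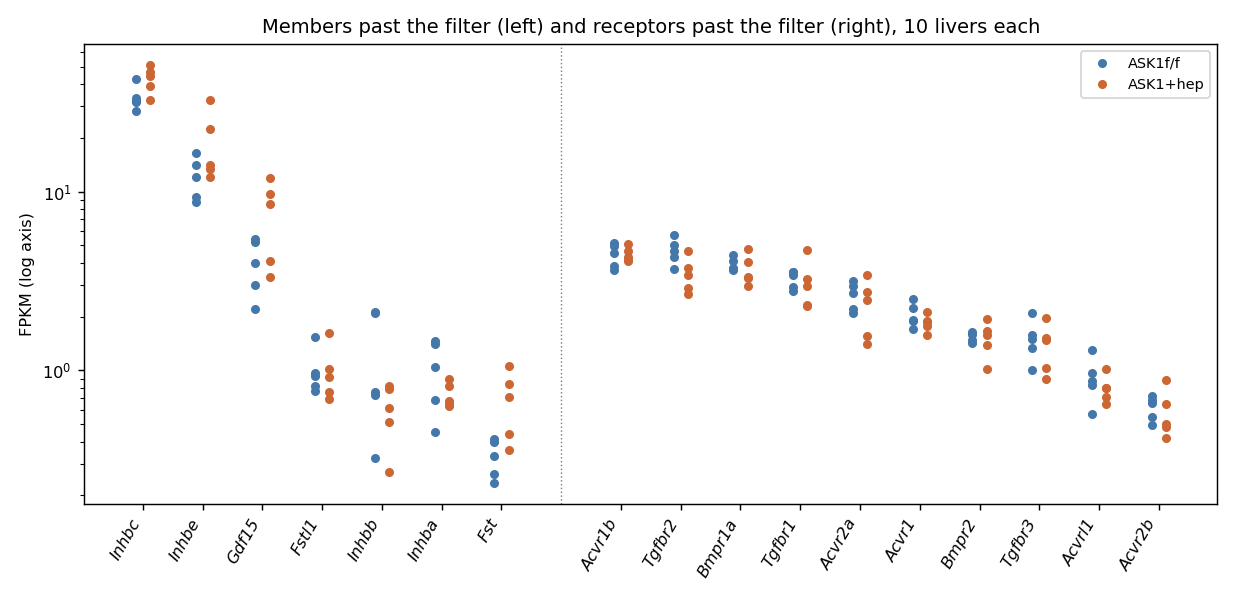
FPKM on a log axis of the 7 members and 10 receptor genes past the filter, 1 point per liver, ASK1f/f in blue and ASK1+hep in orange. Inhbc and Inhbe lie above all receptors, and Acvr1b, Tgfbr2 and Bmpr1a are the receptors with the highest means.

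Of the other ligands, 8 of 12 passed the filter, 0 passed the adjusted threshold, and the median log2 fold change was 0.00. Gdf2, also named Bmp9 and made in the liver, had the highest mean (5.06 FPKM). Nodal had the lowest p, with 0.346 ± 0.197 FPKM in control livers and 0.615 ± 0.175 FPKM in ASK1+hep mice (log2 fold change 0.27, unadjusted p = 0.0310, adjusted p = 0.812 from limma), and Tgfb3 and Gdf2 followed with log2 fold changes of -0.13 and -0.20. Of the other binding proteins, 6 of 14 passed the filter and 0 the adjusted threshold (median log2 fold change -0.02). Fbn1, the matrix protein fibrillin 1, and Bambi, a decoy receptor, had log2 fold changes of -0.08 and 0.10.

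Among the proteases listed for this family, Furin and the Pcsk enzymes are those that cut the precursors. Furin stood at 31.3 and Pcsk6 at 21.7 FPKM on average over the 10 livers and Pcsk5, the lowest, at 0.772 FPKM. Furin and Pcsk6 had log2 fold changes of -0.03 and -0.18. All 6 genes of this list passed the filter, 5 had a log2 fold change below 0 (median -0.09), and 0 passed the adjusted threshold. The exception, the membrane protease Mmp14, had 3.38 to 5.93 FPKM in control livers and 4.79 to 9.77 FPKM in ASK1+hep livers, highest in replicates 2 and 3 (log2 fold change 0.46, unadjusted p = 0.0253, adjusted p = 0.812 from limma). Pcsk7 had a log2 fold change of -0.10.

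Among the Smad proteins and their regulators, all 15 genes passed the filter, 0 passed the adjusted threshold, and 10 were below 0 (median log2 fold change -0.05). Tgif1, a repressor that binds Smads, had the lowest p, with 1.92 ± 0.319 FPKM in control livers and 2.50 ± 0.324 FPKM in ASK1+hep mice (log2 fold change 0.26, unadjusted p = 0.0282, adjusted p = 0.812 from limma). The inhibitory Smad7 and the ubiquitin ligase Smurf1 followed with -0.26 and 0.18. Of 12 genes listed as Smad2 and Smad3 targets, 11 passed the filter, 0 were at an unadjusted p under 0.05 by limma, and 8 were below 0 (median log2 fold change -0.15, against -0.0065 for all genes). The list includes Hamp (log2 fold change 0.26), which is better known as a target of bone morphogenetic proteins. Fibronectin (Fn1) had 121 ± 25.2 FPKM in control livers and 97.2 ± 18.7 FPKM in ASK1+hep mice (log2 fold change -0.31), and Cdkn1a and Col3a1 followed with -0.56 and -0.20.

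The list of stress regulators and targets known from Gdf15 and Inhbe had the highest median of the 7 lists. Of its 19 genes, 18 passed the filter, 12 were above 0 (median log2 fold change 0.19), 4 were higher at an unadjusted p under 0.05, 0 lower, and 0 passed the adjusted threshold. Fgf21, the hormone the study is about, was the only list gene whose groups did not overlap (115 of all genes, 0.864%, had such groups), and its ASK1+hep values in replicates 1 to 5 were 12.3, 25.0, 30.1, 23.4 and 7.40 FPKM. Its highest values were thus in replicates 2, 3 and 4, as for Gdf15, Inhbc and Fst, but replicates 1 and 5 exceeded the highest ASK1f/f value (4.74 FPKM) as well. Fgf21 had a log2 fold change of 2.06 (unadjusted p = 3.8e-05, adjusted p = 0.355 from limma). The study reports Fgf21 as highly upregulated in ASK1+hep livers by its own differential expression test, which was not run here. Asns, which makes asparagine, ran from 0.391 to 5.77 FPKM in control livers and from 2.65 to 10.4 FPKM in ASK1+hep livers, with replicate 3 the lowest of the latter (log2 fold change 1.56, adjusted p = 0.726 from limma). The pseudokinase gene Trib3 had a log2 fold change of 0.70 (unadjusted p = 0.0150) and Ppp1r15a, which restores translation after stress, one of 0.54 (unadjusted p = 0.0235, both at adjusted p = 0.812 from limma). Atf4 itself had 44.1, 66.9 and 58.8 FPKM in ASK1+hep replicates 2, 3 and 4, 27.9 and 31.0 FPKM in replicates 1 and 5, and 26.2 to 40.3 FPKM in ASK1f/f livers (log2 fold change 0.41, adjusted p = 0.812 from limma). Over all 7 lists, 74 of 91 genes passed the filter, 7 were higher and 2 lower at an unadjusted p under 0.05 (9 of 74, against 5.77% of all genes), and 0 passed the adjusted threshold. Of these 9 genes, 4 came from the stress list, Fgf21 among them. The lists were chosen with earlier results of these data known, so this share is no test of them.

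**Figure D5:**
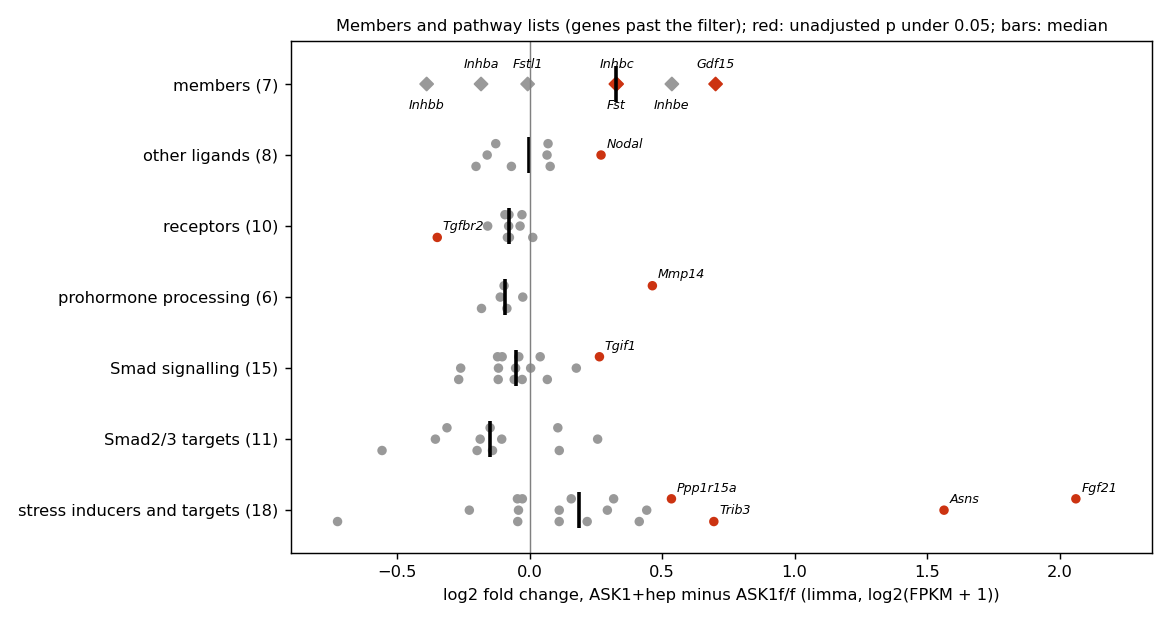
Log2 fold change (ASK1+hep minus ASK1f/f, limma on log2(FPKM + 1)) of the members (diamonds) and of the genes of 6 pathway lists past the filter, without the binding proteins (points, number of genes in parentheses), with black bars at the medians and genes at an unadjusted p under 0.05 in red. Of these lists, the stress list has the highest median (0.19), and Fgf21 (2.06) lies farthest to the right.

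Markers of other cell types of the liver were examined because Fstl1, Inhba and Inhbb are not specific to hepatocytes. Summed Kupffer cell markers ran from 131 to 222 FPKM in control livers and from 85.3 to 202 FPKM in ASK1+hep livers, with 0 of 8 genes above 0 in log2 fold change. Summed markers of stellate cells and fibroblasts (12 genes) ran from 65.6 to 119 and from 69.9 to 125 FPKM, those of endothelial cells (8 genes) from 35.9 to 52.9 and from 28.4 to 54.5 FPKM, those of cholangiocytes (7 genes) from 13.6 to 32.8 and from 15.6 to 28.3 FPKM, and those of leukocytes (8 genes) from 3.93 to 16.1 and from 4.58 to 10.4 FPKM. In none of these 5 lists was a gene at an unadjusted p under 0.05 by limma, and in the hepatocyte list Ttr was (log2 fold change 0.52). The mesothelial markers Upk3b and Msln, the 2 of 5 that passed the filter, had log2 fold changes of -0.41 and -0.42 (unadjusted p = 0.00190 and 0.0417 from limma), and summed mesothelial markers ran from 1.56 to 2.86 and from 0.592 to 2.29 FPKM. Erythroid markers ran from 333 to 490 FPKM in control livers and from 324 to 1053 FPKM in ASK1+hep livers, with 2 of 5 genes, Hba-a2 and Hbb-bt, at an unadjusted p under 0.05 by limma. Of the adipocyte markers, Lep had 0 reads and Adipoq and Plin1 stayed at or below 0.0526 FPKM, while Cidec, which fat-laden hepatocytes also express, had 3.96 to 52.9 and 11.8 to 133 FPKM (log2 fold change 1.69, unadjusted p = 0.0334 from limma). The part of these markers in the differences of Inhba, Inhbb and Fstl1 was not tested.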

How the data were processed

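RNA from 10 livers was sequenced by the authors' provider, which purified poly-A RNA, cleaned the reads (fastp is named in the submitters' processing notes), mapped them with Hisat2 and quantified them with FeatureCounts. The authors deposited FPKM per gene, which are not counts. The DESeq2 comparison of the study's methods was therefore replaced by limma, and was not run here. The genome build, the annotation release and the use of strand in counting are not given in the sources used here. Of the 54532 genes, 54409 were in GENCODE M21 (GRCm38), 98.26% of these at the same position, and all 8 members were among these. FPKM multiplied by gene length gave whole multiples of a step in 100% of values (largest distance 6.98e-06 reads), from which reads per gene were recovered. Depth, limma-voom and the filter used these reads. A gene passed the filter with 10 or more reads (after scaling to the depth of the median library) in 5 or more livers and a total of 15 or more.

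Genotypes, taken from the labels, were compared with limma 3.58.1 in R 4.3.3 (log2(FPKM + 1), mean-variance trend, no covariates, Benjamini-Hochberg over 13306 genes, threshold 0.05). Single values were compared with exact two-sided permutation tests, and members with each other by 100000 permutations. On simulated data for 13306 genes, 95% of 200 genes changed by a log2 fold change of 2 were recovered, 7.77% of 206 calls were false, and 0 were called with no change. The changed genes were drawn only from genes with higher read counts. No member changed that much on the log2(FPKM + 1) scale (0.70 at most, Gdf15). This recovery therefore does not apply to changes of their size or to genes with few reads such as Fst. Any pair of libraries differed by a chi-square of at least 19.2 per degree of freedom, so none was a repeat deposit. GC content and length effects were removed with splines of 5 degrees of freedom per liver (99.93% of genes with a GC value). Other alternatives were leaving out livers, the filter (none, or 10 reads demanded of each liver), log2(FPKM + 0.1), scaling by all reads, limma-voom, also with quality weights, the prefix of the animal tag as covariate, and the replicate block.

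The members, gene lists and tests were chosen with earlier results of these data known. Named genes are the members, Map3k5, Fgf21 and Atf4, up to 3 genes per pathway list with the lowest p and those past a threshold, the 3 genes most like each member, and markers. Cdkn1a beside Inhbb, Acvr1b, Pcsk5, Acvr2b, Acvr1c, Furin, Gfral, Ret, Mstn and Hamp were named for their roles. Tests used scipy 1.17.1 and figures matplotlib 3.10.9. A gene of the binding protein list is not reported here.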

Additional observations from a re-analysis of the deposited data

Results flagged for a closer look

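Values of 24 sets of 5 livers were examined for a liver far from its group, taken as a gap to the next liver of over 0.71 of the full range. This limit was passed in 2 sets, and chance passes it in about 1 in 20. Both came from the library labelled ASK1f/f replicate 5. Fstl1 was at 1.53 FPKM there, with a gap ratio of 0.732, and the other ASK1f/f livers lay between 0.762 and 0.969 FPKM. Map3k5 was at 19.8 FPKM, with a gap ratio of 0.856. The same library had the highest summed Kupffer cell (222 FPKM), leukocyte (16.1 FPKM) and cholangiocyte (32.8 FPKM) markers of its group. Its summed stellate cell and fibroblast markers were the lowest (65.6 FPKM), of which Ecm1 alone made up 23.6 FPKM. The part of these markers in the Fstl1 value was not tested.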

How the results depend on the processing

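The log2 fold changes of Gdf15, Inhbc, Inhbe, Fst, Inhba and Inhbb kept their sign in all 21 alternatives, and no member passed the adjusted threshold in any of them (lowest adjusted p = 0.383, without ASK1+hep replicate 5). Fst was at an unadjusted p under 0.05 in all 21, Gdf15 in 12, Inhbc in 11 and Inhbe in 6. Fits that each left out a liver gave log2 fold changes of 0.52 to 0.91 for Gdf15, 0.26 to 0.42 for Inhbc, 0.32 to 0.66 for Inhbe and 0.25 to 0.40 for Fst. Inhba ranged from -0.29 (without ASK1f/f replicate 3, unadjusted p = 0.0284 from limma) to -0.10 (without ASK1f/f replicate 2; -0.11 without replicate 1), and Inhbb from -0.55 (without ASK1f/f replicate 1, unadjusted p = 0.0198 from limma) to -0.24 (without ASK1f/f replicate 2 or 5). Fstl1, near 0, ranged from -0.11 to 0.081 over these fits and was 0.030 after the GC content and gene length correction, with and without the replicate block. The number of genes past the adjusted threshold was 1 with limma-voom and quality weights, 0 to 1 when a liver was left out (1, Fgf21, without ASK1+hep replicate 5) and 3 (Asns, Cyp2d41-ps and Mup18) without ASK1f/f replicate 5 and ASK1+hep replicate 3. Genes at an unadjusted p under 0.05 numbered 1222 with no filter and 557 to 1724 when a liver was left out (1178 without ASK1+hep replicate 1, 1724 without replicate 5). Members at that level numbered 1 to 4 when a liver was left out, 1 without ASK1f/f replicate 4 or ASK1+hep replicate 2, 3 or 4, and 4 without ASK1+hep replicate 1 or 5. The medians moved to -0.25 for other ligands and -0.13 for binding proteins with quality weights, and to 0.39 with log2(FPKM + 0.1) and 0.42 with limma-voom for the stress list. With scaling by all reads, 31.4% of the genes at an unadjusted p under 0.05 were higher, against 52.9%, the median over all genes was -0.052, and the log2 fold changes of Gdf15, Inhbc, Inhbe and Fst were 0.63, 0.25, 0.46 and 0.30.

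Without the 2 livers farthest from the median, correlations changed sign for Gdf15 and Inhbb (0.48), Inhba and Inhbb (-0.21), Inhba and Inhbc (0.027), Inhba and Fst (0.41), Inhbb and Fst (0.028), Inhbe and Fstl1 (-0.048) and Fst and Fstl1 (-0.23), all pairs with r between -0.29 and 0.10 before. Gdf15 and Fst changed sign within the livers with a length balance above 0 (-0.066). The GC content and gene length correction, the fit without those 2 libraries, the 7-liver correlations and the RefSeq length of Inhbe were chosen after seeing the data. The livers of replicates 1 to 4 carry neighbouring animal tags across genotypes, but no label states a shared litter or batch. Same-numbered livers deviated together with correlations of 0.074, 0.174, 0.021, 0.171 and 0.093 (above 0.1 in 2 of 5 pairs). Their mean was 0.107, against -0.027 for livers of different number. ASK1f/f replicates 1, 2, 4 and 5 were closest to the ASK1+hep liver of their number, but of the ASK1+hep livers only replicates 2 and 4 were closest to theirs. The main tests did not take the numbers as pairs, and a shared origin of same-numbered livers was not tested. With the replicate block, unadjusted p-values from limma were 0.0097 for Fst, 0.0502 for Gdf15, 0.0693 for Inhbc and 0.0489 for Inhbe, 0 genes passed the adjusted threshold, and the sign-flip permutation test of Fst gave p = 0.063, the smallest that 5 pairs allow. The cause of these changes was not tested. Depth limits Fst (18 to 63 reads), Inhbb (17 to 142) and Fstl3 most.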
